A study of Mus musculus with 9 samples.

Results

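The 6 enzymes described here, Maoa, Maob, Aldh1a1, Aldh2, Aldh7a1 and Aldh9a1, were chosen by name as genes that break down dopamine or clear reactive aldehydes. The rule uses no measured value, though it was written with earlier results of these data known. They are 6 of the 26602 genes with at least 1 count in any library, and all 6 are among the 18127 genes with enough counts to be tested. RNA was sequenced from midbrain tissue containing the substantia nigra pars compacta (SNpc) of 9 untreated mice at 3 to 4 months of age, 4 of them DJ-1+/+ and 5 DJ-1-/-, with 1 library per mouse. The labels do not give the sex of the mice. DJ-1-/- mice carry a targeted, germline loss of Park7, the gene for the redox-sensitive protein DJ-1, which is not limited to a cell type. The line had been backcrossed for 7 generations to C57BL/6, and both genotypes came from heterozygous parents and shared cages. The libraries were 3′ mRNA-seq libraries with unique molecular identifiers (UMIs). By this design a count is meant to stand for a molecule read near its polyadenylated end and not to grow with transcript length. Whether the deposited counts are proportional to molecules was not tested.

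Dopamine that is not packed into vesicles is deaminated by the monoamine oxidases Maoa and Maob, flavoenzymes of the outer mitochondrial membrane, which also act on serotonin and noradrenaline. The product is DOPAL, an aldehyde that reacts with proteins. Aldehyde dehydrogenases oxidise DOPAL to the acid DOPAC, with Aldh1a1 acting in the cytosol and Aldh2 in the mitochondrial matrix. In the midbrain Aldh1a1 is known as a marker of a ventral group of dopaminergic neurons, whereas Maob is known from astrocytes and serotonergic neurons. Aldh7a1 takes part in lysine breakdown and in the removal of lipid aldehydes, and Aldh9a1 oxidises aminoaldehydes on the way to carnitine and GABA.

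The coding stretches around the reactive cysteine are shown because they tell the chemistry of the oxidases from that of the dehydrogenases. They also set Aldh1a1 beside Aldh1a7, a gene of similar sequence on the same chromosome. Whether reads of these genes can be told apart was examined at their 3′ ends, below. Each stretch is 57 bases of a GENCODE M21 transcript (GRCm38), written 5′ to 3′ on the coding strand, with the codon of the cysteine in capitals. In the oxidases this cysteine holds the flavin cofactor, and in the dehydrogenases it attacks the aldehyde.
Maoa: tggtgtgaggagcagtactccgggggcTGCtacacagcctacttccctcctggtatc
Maob: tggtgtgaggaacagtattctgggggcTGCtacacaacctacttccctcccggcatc
Aldh1a1: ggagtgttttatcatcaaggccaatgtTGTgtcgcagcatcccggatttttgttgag
Aldh1a7: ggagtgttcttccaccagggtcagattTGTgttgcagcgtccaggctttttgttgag
Aldh2: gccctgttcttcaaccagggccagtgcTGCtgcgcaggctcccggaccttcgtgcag
Aldh9a1: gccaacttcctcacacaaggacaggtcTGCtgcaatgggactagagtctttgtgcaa

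The Maoa stretch lies in exon 12 of the gene at chrX:16682225-16682281 on the plus strand, and the Maob stretch in exon 12 at chrX:16716403-16716459 on the minus strand. They share 51 of 57 bases, where the whole coding sequences are 72.0% identical over the aligned bases. The Aldh1a1 stretch lies in exon 9 at chr19:20630695-20630751 on the plus strand and that of Aldh1a7 in exon 9 at chr19:20708249-20708305 on the minus strand, with 44 of 57 bases shared and 91.9% identity over the coding sequence. The Aldh2 stretch lies in exon 9 at chr5:121572775-121572831 on the minus strand, and that of Aldh9a1 runs from exon 6 into exon 7 within chr1:167357427-167361435 on the plus strand. Of the 451 windows of 50 bases in the last 500 bases of the Aldh1a1 transcript, where 3′ reads fall, 0 occur in an Aldh1a7 transcript, and the same search of Maoa against Maob also gave 0.

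All 6 genes are protein-coding. Maoa (ENSMUSG00000025037, chrX:16619698-16687818, plus strand) and Maob (ENSMUSG00000040147, chrX:16709282-16817366, minus strand) lie tail to tail with 21463 bases between them. Aldh1a1 (ENSMUSG00000053279) spans chr19:20492715-20643465 on the plus strand, and Aldh2 (ENSMUSG00000029455) spans chr5:121566027-121593824 on the minus strand. Aldh7a1 (ENSMUSG00000053644) spans chr18:56509687-56572951 on the minus strand, and Aldh9a1 (ENSMUSG00000026687) spans chr1:167349991-167368532 on the plus strand. The start of Aldh7a1 overlaps that of Phax on the other strand. Phax had 89 to 135 counts per library, and since the use of strand in the counting is not given in the sources used here, reads in the overlap cannot be assigned with certainty. The annotated genes that overlap Aldh1a1 and Aldh2 had at most 4 counts over the 9 libraries.

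The DJ-1+/+ libraries held 841974 to 886085 counts and the DJ-1-/- libraries 967751 to 1098125, so depth and genotype cannot be told apart, and levels are given as cpm, the counts of a gene per 1000000 counts of its library. Park7 was lower in each DJ-1-/- library, with 14 to 29 counts, than in any DJ-1+/+ library, with 105 to 132 (log2 fold change -2.71, adjusted p = 7.44e-08, edgeR's quasi-likelihood test), and was the only tested gene with an adjusted p under 0.05, 0.00552% of all. The counts cover a narrow range for brain tissue. The 100 most abundant genes held 3.67% of all counts, and mt-Co1, a mitochondrial transcript, and Mbp, a myelin gene, had means of 385 and 494 counts per library. How far this narrows differences between genes, between genotypes or between mice was not tested. The enzymes stood between the 72.7 and 93.8 percentiles of tested genes by mean count. Th, which marks dopaminergic neurons of the midbrain, had counts in all 9 libraries, from 30 to 119. Libraries also differed in genes of neighbouring tissue. DJ-1+/+ replicate 1 had 486 summed cpm over 4 cerebellar neuron genes, against 22.1 to 54.2 in the other 8 mice. DJ-1+/+ replicate 4 had 596 summed cpm over 6 choroid plexus genes, against 43.4 to 277 elsewhere. Xist, the RNA made from the inactive X chromosome of females, was at 0 to 2 counts in 2 of 4 DJ-1+/+ mice (replicates 1 and 4) and 1 of 5 DJ-1-/- mice (replicate 5), and at 146 to 193 counts in the other 6. Ddx3y, a gene of the Y chromosome, had 121 and 113 counts in these DJ-1+/+ mice and 152 in this DJ-1-/- mouse. It had 0 to 4 counts in the other 6, so the mice with low Xist had the pattern of males.

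None of the 6 enzymes differed detectably between DJ-1+/+ and DJ-1-/- midbrain. By edgeR's quasi-likelihood test, 0 of 6 fell under an unadjusted p of 0.05, where 511 of the 18127 tested genes, 2.82%, did, and the smallest unadjusted p was 0.19, for Aldh1a1. DESeq2's test also gave 0 of 6 under that p. The cpm of all 6 overlapped between genotypes, where 1.25% of tested genes did not overlap. The fitted log2 fold changes were above 0 for Aldh1a1, Aldh2 and Aldh7a1 and below 0 for Maoa, Maob and Aldh9a1, 3 of 6 above 0 beside 51.8% of all tested genes. Their median was -0.01, and the median of all tested genes was 0.01. Every library held between 65 and 172 counts of each enzyme. Together the 6 intervals reached from -0.36 to 0.28 on the log2 scale.

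**Figure D1:**
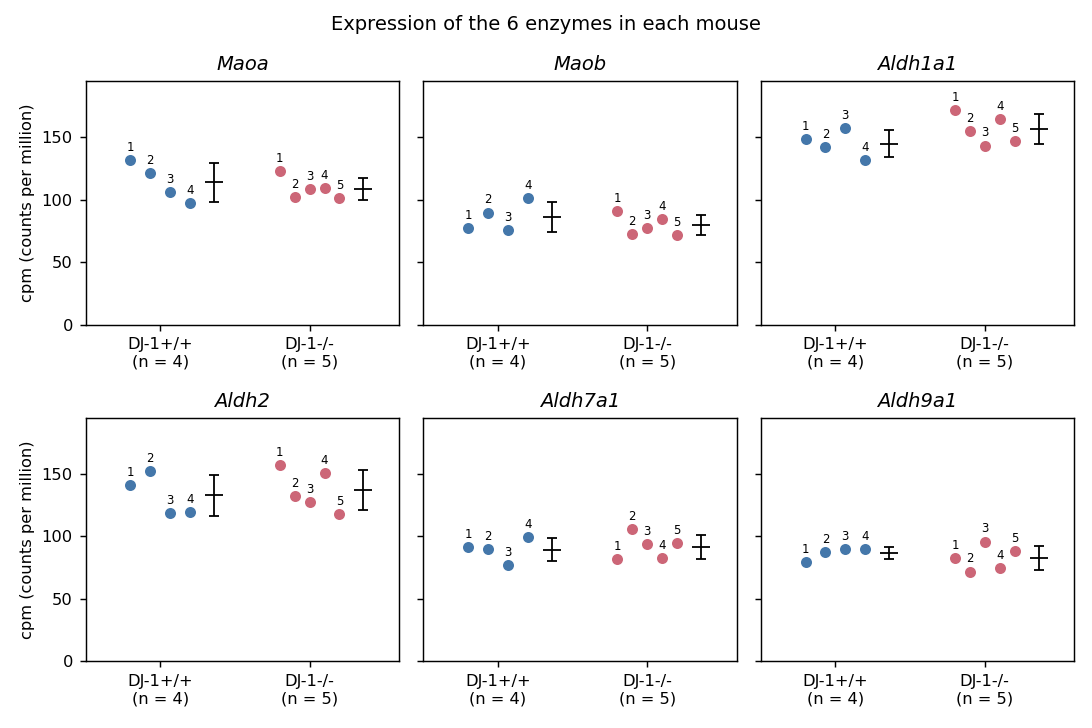
Expression of the 6 enzymes in cpm (vertical axis, from 0) in each mouse, with DJ-1+/+ in blue and DJ-1-/- in red, the number beside a point giving the replicate and the black bars the mean ± SD of 4 and 5 mice. In every panel the points of the genotypes overlap, and all values lie between 71.9 and 172 cpm.

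Maoa counts in the DJ-1+/+ libraries were 111, 107, 91 and 86, and those in the DJ-1-/- libraries were 123, 112, 105, 106 and 104. The DJ-1+/+ mean was 114 ± 15.6 cpm (SD, n = 4), and the DJ-1-/- mean 109 ± 8.77 cpm (SD, n = 5). The highest and the lowest of the 9 values, 132 and 97.1 cpm, both came from DJ-1+/+ mice, replicates 1 and 4, and the DJ-1-/- values fell between them. The log2 fold change was -0.07 (standard error 0.10, 95% interval -0.28 to 0.14), with an exact two-sided permutation p of 0.556 over all splits of the 9 mice, where 0.0159 is the smallest p possible. The interval leaves room for a level 17.4% lower or 10.1% higher in DJ-1-/- mice. Without DJ-1+/+ replicate 1 the log2 fold change was 0.0085.

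Maob counts in the DJ-1+/+ libraries were 65, 79, 65 and 90, and those in the DJ-1-/- libraries were 91, 80, 75, 82 and 74. The DJ-1+/+ mean was 86.0 ± 12.1 (SD, n = 4) and the DJ-1-/- mean 79.6 ± 8.14 cpm (SD, n = 5), a difference smaller than either SD. DJ-1+/+ replicate 4 was the highest at 102 cpm, and the other DJ-1+/+ mice lay within the range of the DJ-1-/- mice. Among the 6 enzymes Maob had the fitted value furthest below 0, with a log2 fold change of -0.12 (standard error 0.12, 95% interval -0.36 to 0.13, exact permutation p = 0.349). Without DJ-1+/+ replicate 4 it was -0.025.

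Because both oxidases are counted in the same library, their proportion does not depend on depth. Maob made up 36.9%, 42.5%, 41.7% and 51.1% of the Maoa and Maob counts of DJ-1+/+ replicates 1 to 4, as against 42.5%, 41.7%, 41.7%, 43.6% and 41.6% for DJ-1-/- replicates 1 to 5. The 5 DJ-1-/- mice thus lay between 41.6% and 43.6%, and the DJ-1+/+ mice reached beyond them on both sides. The 95% Wilson intervals, which cover counting error only, were wide, from 30.2% to 44.3% in DJ-1+/+ replicate 1 and from 43.8% to 58.4% in DJ-1+/+ replicate 4. In DJ-1-/- replicate 1 the interval ran from 36.1% to 49.2%, wider than the spread of the 5 DJ-1-/- shares. DJ-1+/+ replicates 1 and 4 are also the libraries with cerebellar and choroid plexus genes. A genotype difference in the spread of the share was not tested.

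Both oxidase genes are on the X chromosome. In the 3 mice with 0 to 2 Xist counts Maoa was at 132, 97.1 and 101 cpm and Maob at 77.2, 102 and 72.1 cpm, and these hold both the highest and the lowest of the 9 values of each gene. When the fit also held Xist (log2 cpm) the genotype effects on the log2 scale were -0.07 for Maoa and -0.12 for Maob. Genes of serotonergic and noradrenergic neurons, cells in which the oxidases are known to act, summed to 3.39 cpm in DJ-1+/+ replicate 4 and 0.974 cpm in DJ-1-/- replicate 5 and to between 109 and 382 cpm in the other 7 mice. Tph2 and Slc6a4, which define serotonergic neurons, had 2 and 0 counts in the former mouse and 0 in the latter. In these mice Maoa was the lowest of its genotype, at 97.1 and 101 cpm, while Maob was the highest of its genotype in the former and the lowest in the latter. This comparison was made after the values were seen, and the part of these neurons in the oxidase levels was not tested.

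Aldh1a1 had the highest level of the 6. Its counts in the DJ-1+/+ libraries were 125, 125, 135 and 117, and those in the DJ-1-/- libraries were 172, 170, 139, 159 and 151. The DJ-1+/+ mean was 145 ± 10.6 cpm (SD, n = 4), and the DJ-1-/- mean 156 ± 11.9 cpm (SD, n = 5). DJ-1-/- replicates 1 and 4, at 172 and 164 cpm, stood above every DJ-1+/+ mouse, and the other 3 lay within the DJ-1+/+ range. The log2 fold change was 0.11 (standard error 0.08, 95% interval -0.06 to 0.28, unadjusted p = 0.19 and adjusted p = 1 in edgeR's quasi-likelihood test), and the exact permutation p was also 0.19. The interval leaves room for a level 4.09% lower or 21.4% higher in DJ-1-/- mice.

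Aldh2 counts in the DJ-1+/+ libraries were 119, 134, 102 and 106, and those in the DJ-1-/- libraries were 157, 145, 124, 146 and 121. The DJ-1+/+ mean was 133 ± 16.6 (SD, n = 4) and the DJ-1-/- mean 137 ± 16.4 cpm (SD, n = 5), and the values ran from 119 to 152 cpm in the former and from 118 to 157 cpm in the latter. The log2 fold change was 0.04 (standard error 0.10, 95% interval -0.17 to 0.26, exact permutation p = 0.762), and it was -0.0087 and -0.0044 without DJ-1+/+ replicates 3 and 4 and -0.013 and -0.0039 without DJ-1-/- replicates 1 and 4.

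Aldh7a1 counts in the DJ-1+/+ libraries were 77, 79, 66 and 88, and those in the DJ-1-/- libraries were 82, 116, 91, 80 and 97, giving a DJ-1+/+ mean of 89.3 ± 9.34 (SD, n = 4) and a DJ-1-/- mean of 91.8 ± 9.76 cpm (SD, n = 5). Its highest value, 106 cpm, came from DJ-1-/- replicate 2 and its lowest, 76.8 cpm, from DJ-1+/+ replicate 3, and the others mixed. The log2 fold change was 0.04 (95% interval -0.18 to 0.26, exact permutation p = 0.698). Without DJ-1+/+ replicate 3 it was -0.027, and without DJ-1-/- replicate 2 it was -0.015. Aldh9a1 counts in the DJ-1+/+ libraries were 67, 77, 77 and 80, and those in the DJ-1-/- libraries were 83, 79, 93, 72 and 91, giving a DJ-1+/+ mean of 86.7 ± 4.92 (SD, n = 4) and a DJ-1-/- mean of 82.8 ± 9.95 cpm (SD, n = 5). The DJ-1+/+ values fell inside the DJ-1-/- range of 71.9 to 95.9 cpm. The log2 fold change was -0.07 (95% interval -0.30 to 0.16, exact permutation p = 0.508).

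Without DJ-1+/+ replicates 1 and 4, the libraries with cerebellar and choroid plexus genes, the log2 fold changes were -0.06 for Maoa, -0.05 for Maob, 0.07 for Aldh1a1, 0.02 for Aldh2, 0.15 for Aldh7a1 and -0.10 for Aldh9a1. None of these had an unadjusted p under 0.05. Replicates 1 and 4 are also the DJ-1+/+ mice with low Xist, at 0 and 1 count. DJ-1-/- replicate 5, with 2 Xist counts, was kept. Neighbouring tissue and Xist level thus cannot be told apart in this fit.

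By mean level over the 9 mice the order was Aldh1a1 at 151 cpm, Aldh2 at 135, Maoa at 111, Aldh7a1 at 90.7, Aldh9a1 at 84.6 and Maob at 82.5. Aldh1a1 was above Aldh2 in 8 of 9 mice, Aldh2 above Maoa in 9 of 9, and Maoa above Aldh7a1 in 7 of 9, with differences larger than the SD over mice. Aldh7a1, Aldh9a1 and Maob did not differ beyond their spread, since the steps between them were smaller than the SD. The ranges of all neighbours overlapped.

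The enzymes varied little between mice. The highest of the 9 values was 1.30 times the lowest for Aldh1a1, and 1.33 to 1.41 times for the other 5. Spread was set against counting noise as the chi-square of the counts within genotypes per degree of freedom, where a value of 1 is what counting alone gives. It was 1.20 for Maoa, 1.12 for Maob, 0.80 for Aldh1a1, 1.89 for Aldh2, 0.98 for Aldh7a1 and 0.79 for Aldh9a1. The 6094 tested genes with a mean of 60 to 200 counts had a median of 0.97, with quartiles of 0.62 and 1.56. Aldh2 was thus the only one of the 6 above the upper quartile, and 1038 of the 6094 genes had a larger value.

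**Figure D2:**
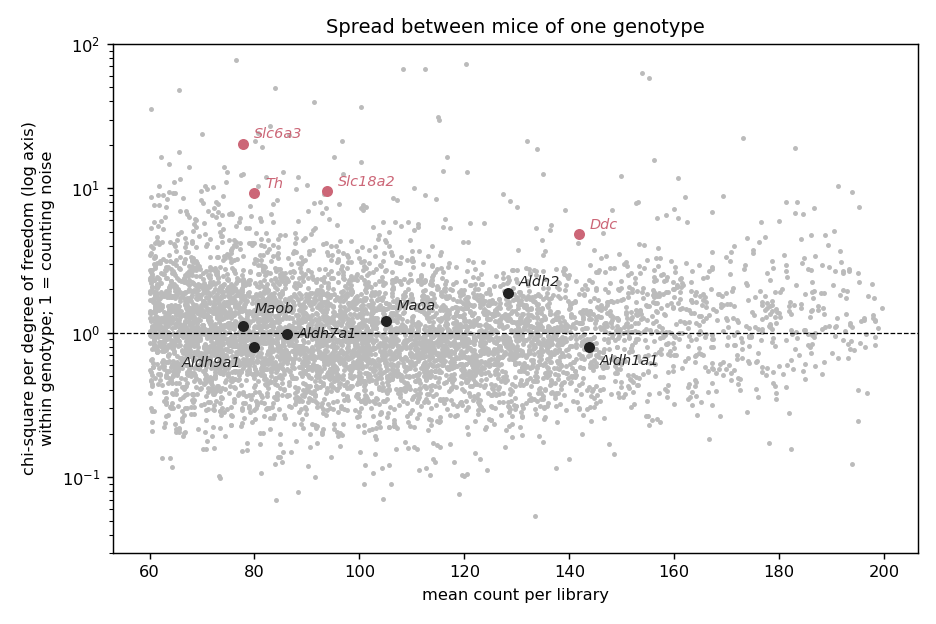
Spread between mice of the same genotype for the 6094 genes with a mean of 60 to 200 counts (grey points), as chi-square per degree of freedom on a log axis against the mean count per library, with 1 (dashed) standing for counting noise. The 6 enzymes (black) lie between 0.79 and 1.89, and the dopaminergic genes Ddc, Th, Slc18a2 and Slc6a3 (red) between 4.82 and 20.4.

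Some genes of dopaminergic neurons, the cells that make the dopamine these enzymes break down, had a wider spread between the mice. Th, which makes the dopamine precursor L-DOPA, was counted 56, 100, 37 and 30 times in the DJ-1+/+ libraries, against 80, 119, 107, 111 and 80 times in the DJ-1-/- libraries. Slc6a3, the dopamine transporter, was counted 31, 114, 20 and 27 times in the DJ-1+/+ libraries, against 58, 131, 111, 103 and 105 times in the DJ-1-/- libraries. DJ-1+/+ replicate 2 was like the DJ-1-/- mice, and the other 3 DJ-1+/+ mice were lower. The highest cpm was 3.39 times the lowest for Th and 5.57 times for Slc6a3, with chi-square values per degree of freedom of 9.30 and 20.4. Not every gene of these neurons spread so widely. The value was 1.94 for Ret, 1.47 for Kcnj6, 1.40 for Foxa1 and 1.20 for Pitx3, the last 3 with low counts. In bulk tissue fewer cells of a type and less RNA per cell cannot be told apart.

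Of 15 dopaminergic neuron genes (Aldh1a1 not among them), all were tested, 14 were fitted above 0 and 6 had an unadjusted p under 0.05 with higher values in DJ-1-/- mice, beside 1.55% of all tested genes called in that direction. Their median log2 fold change was 0.28, against 0.01 over all tested genes. The count of 6 was 0 without any one of DJ-1+/+ replicates 3 and 4 and DJ-1-/- replicates 2 and 4, and also 0 without both DJ-1+/+ replicates 1 and 4. It was 2 without DJ-1+/+ replicate 1, 3 without DJ-1-/- replicate 1 or 3, 6 without DJ-1-/- replicate 5 and 8 without DJ-1+/+ replicate 2. With all libraries kept, the count was 0 with Xist in the fit and 1 with DESeq2. It was 9 with no filter on low counts and 9 with the replicate number as a block. The 6 genes of serotonergic and noradrenergic neurons were also all fitted above 0, with a median of 0.34 and 0 under an unadjusted p of 0.05. The dopaminergic neuron list was chosen with earlier results of these data known. Its 6 genes under that p were Th (0.61), Slc6a3 (0.86), Pitx3, Foxa1, Ret (0.25) and Chrna6 (0.89), with an adjusted p of 1 for each in edgeR's quasi-likelihood test. Pitx3, a transcription factor of dopaminergic neurons, had only 0 to 6 counts per library. Summed over the dopaminergic neuron list, DJ-1+/+ mice had 650 to 1302 cpm and DJ-1-/- mice 916 to 1321. The mean of the list overlapped between the genotypes (exact permutation p = 0.0952). The part of the dopaminergic neuron genes in the Aldh1a1 level was not tested beyond a ratio within each library and a correlation.

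**Figure D3:**
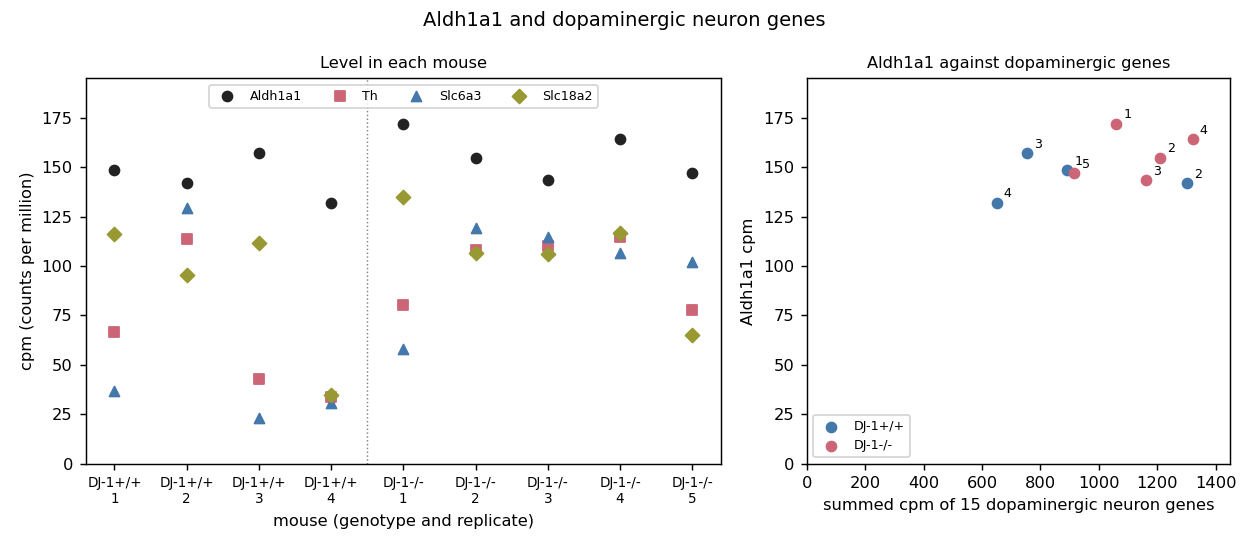
Left, cpm of Aldh1a1 and of the dopaminergic neuron genes Th, Slc6a3 and Slc18a2 in each of the 9 mice, and right, Aldh1a1 cpm against the summed cpm of 15 dopaminergic neuron genes, with replicate numbers beside the points. Aldh1a1 stays between 132 and 172 cpm while Slc6a3 runs from 23.3 to 130 cpm and the summed list from 650 to 1321 cpm.

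Set against the dopaminergic neuron genes of the same library, Aldh1a1 had 16.6, 10.9, 20.8 and 20.3 counts per 100 counts of the 15 genes for DJ-1+/+ replicates 1 to 4, as against 16.2, 12.8, 12.4, 12.4 and 16.1 for DJ-1-/- replicates 1 to 5. The 3 highest values came from DJ-1+/+ mice, and so did the lowest. The means were 17.2 ± 4.57 (SD, n = 4) and 14.0 ± 1.99 (SD, n = 5), a difference of -3.18 with an exact permutation p of 0.238. Leaving out DJ-1+/+ replicate 2 gave a difference of -5.27 and an exact permutation p of 0.0357, the smallest that 3 against 5 mice allow. That mouse had the lowest ratio, and its Th and Slc6a3 counts were like those of the DJ-1-/- mice. No other left-out library gave a lower p. The ratio falls where the 15 genes are higher, so its difference cannot be told apart from theirs. Per 100 counts of Th alone the means were 276 ± 124 and 164 ± 36.2 (SD, n = 4 and 5, exact permutation p = 0.143), and per 100 counts of Slc6a3 alone they were 405 ± 232 and 170 ± 71.7 (exact permutation p = 0.0952). The genes of the list did not all move together. In DJ-1+/+ replicates 1 and 3 Slc18a2 was at 116 and 112 cpm, while Slc6a3 was at 36.8 and 23.3 cpm. Tph2, which defines serotonergic neurons, was at 96.2 and 101 cpm in these mice. Whether the list also counts serotonergic or noradrenergic neurons was not tested.

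Whether any of the 6 enzymes followed the dopaminergic neuron or the astrocyte content of the tissue was examined over the 9 mice, with 12 relations in all and p-values from exact permutation of the pairings. The 12 astrocyte genes, which include the water channel gene Aqp4 and the glutamate transporter gene Slc1a2, summed to between 2337 and 2645 cpm over the mice. With the dopaminergic neuron genes Aldh1a1 had r = 0.45 (permutation p = 0.229) and rho = 0.30 (permutation p = 0.437). Aldh2 had r = 0.64 (permutation p = 0.0632) and rho = 0.53 (permutation p = 0.148), and r was 0.36 without the 2 mice farthest from the median of the list. With each genotype centred on its own mean, r for Aldh2 was 0.71 (permutation p = 0.0451, adjusted p = 0.446). With the astrocyte genes Aldh1a1 had rho = 0.72 (permutation p = 0.0369, adjusted p = 0.442 over the 12 relations) and r = 0.33 (permutation p = 0.385). This r was 0.58 (permutation p = 0.12) with each genotype centred and 0.60 (permutation p = 0.152) without the 2 farthest mice. In the same settings rho was 0.68 (permutation p = 0.0674, adjusted p = 0.202) and 0.86 (permutation p = 0.0238, adjusted p = 0.286). No relation had an adjusted p under 0.05, and 9 mice are few for such relations.

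Among the 6 enzymes themselves, 15 pairs were compared over the 9 mice. Maoa and Aldh2 had the highest r, 0.75 (exact permutation p = 0.0247, adjusted p = 0.371 over the 15 pairs) and rho = 0.78 (exact permutation p = 0.0172, adjusted p = 0.258). Without the 2 mice farthest from the median of the first gene of a pair, r was 0.78 for Maoa and Aldh2 but went from 0.33 to 0.84 for Maob and Aldh2, so the order of the pairs changed. Maoa and Maob, neighbours in the genome, had r = 0.07 (exact permutation p = 0.861) and rho = 0.23 (exact permutation p = 0.552).

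The genes whose cpm followed each enzyme most closely over the 9 libraries, out of 12636 with at least 90 counts in all, are given as a description only, since the best of so many will be high at this n. They were Ranbp6, Kpna3 and Idh3g for Maoa (r from 0.92 to 0.93), and Thop1, Grin2d and Tmem246 for Maob (r from 0.88 to 0.89). They were Glud1, Gcsh and Atp5k for Aldh1a1 (r from 0.95 to 0.96), and Esco1, Tmem9 and S100a1 for Aldh2 (each r 0.91). They were Egr3, Zcchc2 and Utp18 for Aldh7a1 (r from 0.90 to 0.95), and Tpp2, Stk26 and Ell for Aldh9a1 (r from 0.92 to 0.94). Glud1, Gcsh, Atp5k and Idh3g encode proteins of the mitochondrion, and how common such genes are among the 12636 was not tested. Neither Th nor Slc6a3 was among the 3 genes nearest to Aldh1a1, which holds for nearly any gene out of so many.

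The neighbouring steps of the pathway were examined from lists of enzymes. Of 29 further enzymes 28 were tested, 16 fitted above and 12 below 0 (median 0.04 on the log2 scale), and 0 fell under an unadjusted p of 0.05 (edgeR's quasi-likelihood test). The smallest unadjusted p was 0.0817, for Akr1b3. Of 4 further enzymes acting on monoamines 2 were fitted above and 2 below 0, between Aoc3 and Rnls, which had 1 to 9 and 2 to 22 counts per library.

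Of 15 other aldehyde dehydrogenases 14 were tested, 8 fitted above and 6 below 0, with a median of 0.02, and Aldh8a1 had only 2 counts over the 9 libraries. Aldh5a1, which oxidises the succinic semialdehyde formed from GABA, was the most abundant, with a DJ-1+/+ mean of 114 ± 10.5 (SD, n = 4) and a DJ-1-/- mean of 118 ± 7.10 cpm (SD, n = 5), with a log2 fold change of 0.05 (standard error 0.08). Aldh3a2, which oxidises fatty aldehydes, was at 86.2 ± 8.51 and 78.3 ± 8.67 cpm (SD, n = 4 and 5; log2 fold change -0.14, standard error 0.11). The extremes were Aldh18a1, an enzyme of proline synthesis, at 0.43 (standard error 0.33), and Aldh1a3, which had 0 to 4 counts per library and for which no fold is given. Aldh1a7, the near copy of Aldh1a1, had 2 to 10 counts per library, against 117 to 172 of Aldh1a1.

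Of 10 aldehyde reductases and alcohol dehydrogenases, a route that turns aldehydes such as DOPAL into alcohols, all were tested, 6 fitted above and 4 below 0, with a median of 0.07. Akr1a1, the aldehyde reductase, was the most abundant, with a DJ-1+/+ mean of 182 ± 16.4 (SD, n = 4) and a DJ-1-/- mean of 192 ± 13.8 cpm (SD, n = 5), with a log2 fold change of 0.08 (95% interval -0.09 to 0.25). The highest fitted value was 0.19 for Akr7a5 (standard error 0.20). The lowest was that of Akr1b3, which had 2 to 6 counts in the DJ-1+/+ and 1 to 4 in the DJ-1-/- mice, too near the detection floor, set at 3 counts, for a fold to be given. Genes of the Akr1b group resemble each other in sequence, and how the counting split their reads is not known.

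**Figure D4:**
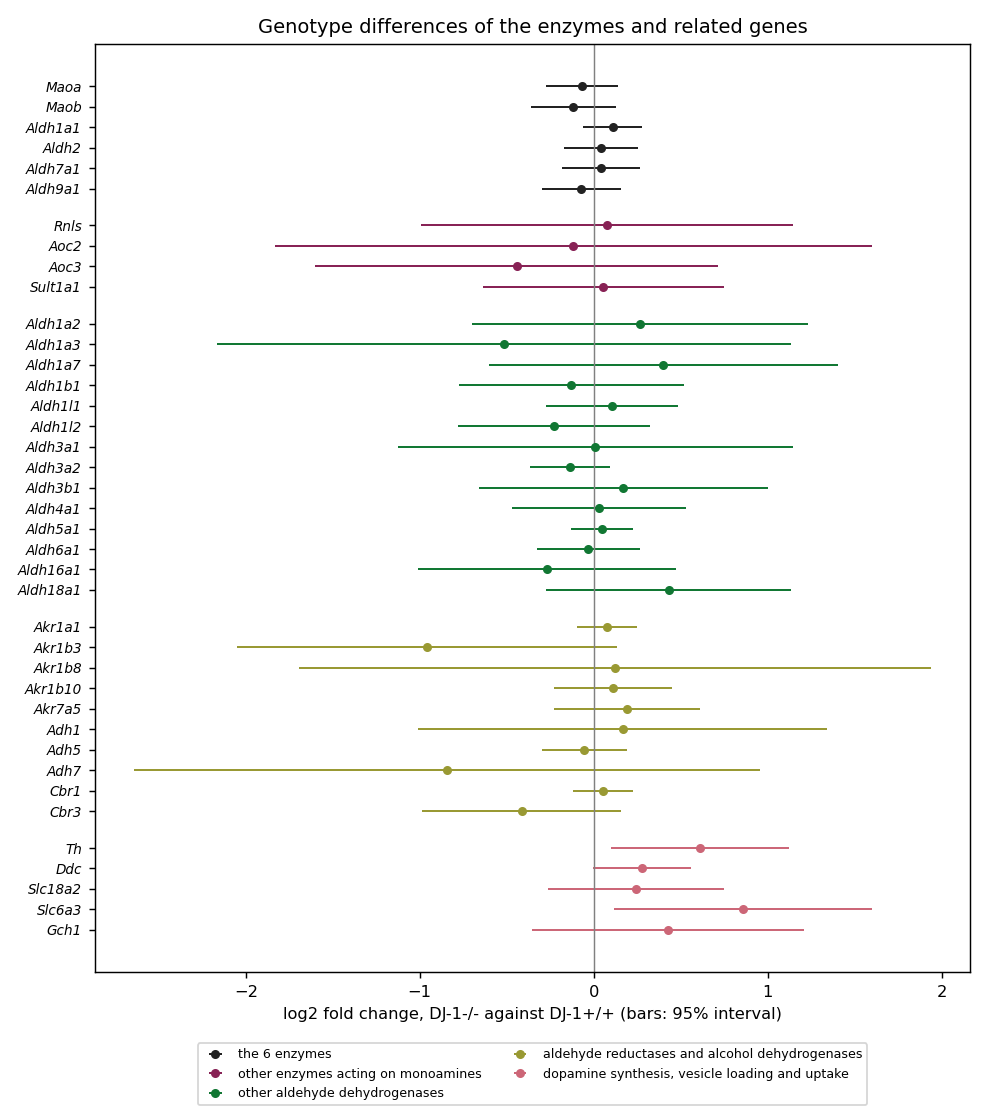
Log2 fold change of DJ-1-/- against DJ-1+/+ (points) with its 95% interval (bars) from edgeR's fit for the 6 enzymes, 28 related enzymes and 5 genes of dopamine synthesis, vesicle loading and uptake. The intervals of the 6 enzymes all cross 0 and stay between -0.36 and 0.28, and those of Th and Slc6a3 lie above 0 before any adjustment.

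The 5 genes that make, load or take up dopamine were all fitted above 0, with a median of 0.43, and 2 of them, Th and Slc6a3, had an unadjusted p under 0.05 (0.0226 and 0.0263 by edgeR's quasi-likelihood test, adjusted p = 1), and neither had one in the fits named above in which the count of dopaminergic neuron genes was 0. For single-gene cpm the exact permutation p was 0.0952 for Th and 0.127 for Slc6a3. Slc18a2, the vesicular monoamine transporter that keeps dopamine away from the oxidases, was the lowest of the 5, with a log2 fold change of 0.24 (standard error 0.24). Ddc, which makes dopamine from L-DOPA, was at 0.28 (95% interval -0.0024 to 0.56).

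Markers of other cell types that could carry these enzymes were counted in the same way. Between DJ-1+/+ and DJ-1-/- mice, 0 of 12 astrocyte genes had an unadjusted p under 0.05 (median log2 fold change -0.03, with 2354 to 2645 summed cpm in the former genotype and 2337 to 2567 in the latter). The same count was 0 of 6 oligodendrocyte (median -0.02), 0 of 6 microglia (0.03), 0 of 6 endothelial (-0.08), 0 of 4 ependymal (-0.14) and 0 of 5 tested meningeal fibroblast genes (-0.08). All 6 choroid plexus genes and 3 of 4 cerebellar neuron genes had one, with lower values in DJ-1-/- mice, beside 1.27% of all tested genes called in that direction. The choroid plexus count was 0 without DJ-1+/+ replicate 4 and the cerebellar count 0 without DJ-1+/+ replicate 1. DJ-1+/+ replicates 2 and 3 had choroid plexus sums of 73.9 and 87.3 cpm, within the 43.4 to 164 cpm of the DJ-1-/- mice. The mean level of neither list passed the exact permutation test (p = 0.143 and p = 0.0635). The fit without DJ-1+/+ replicates 1 and 4 also took out the DJ-1+/+ mice with low Xist. Beyond that fit, the part of these genes in the enzyme levels was not tested.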

How the data were processed

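The authors deposited, for each mouse, raw UMI counts per gene as whole numbers, with genes at 0 left out. The submitters' processing notes name fastp 0.20.0, STAR 2.7.3a, featureCounts 2.0.0 (Subread), and UMI-tools 1.0.0 with the build GRCm38. The annotation, the use of strand and the settings are not given in the sources used here. The 9 lists were joined by Ensembl identifier, with 0 for a gene not listed, and symbols and positions were taken from GENCODE M21 (26570 of 26602 identifiers matched). Totals per library were 841974 to 1098125 counts. Wilson intervals of shares cover counting error only.

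Genes reaching 10 counts summed over all libraries were tested with edgeR 4.0.16 (estimateDisp, glmQLFit, glmQLFTest, TMM, genotype only) in R 4.3.3, with Benjamini-Hochberg adjustment over all tested genes. The standard error is the fitted log2 fold change over the root of edgeR's F statistic, and intervals use the t quantile. Single values were compared by exact permutation in scipy 1.17.1, with log2(cpm + 1) for correlations. Scripts were tested on simulated data, where edgeR recovered 96 of 100 genes changed by 1 and 40 of 100 changed by 0.5 on the log2 scale (18151 genes). Alternatives were DESeq2 1.42.0, other scalings and filters, thinned counts, Xist as covariate, the replicate number as block and leaving out libraries; counting marker genes under these was added after seeing the data. The p-values of genotype differences set a difference against the spread between mice, which includes counting noise. Those of correlations come from permuting the pairings. The genes named were the 6 enzymes, Park7, Xist, fixed comparator genes, the extremes of each comparator list and those with an unadjusted p under 0.05, and the 3 genes most like each enzyme; others were named after their values were seen. 1 gene of the comparator lists is not reported here. The members and lists were chosen with earlier results of these data known.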

Additional observations from a re-analysis of the deposited data

Results flagged for a closer look

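In 30 groups of 4 or 5 values, 3 single mice stood apart from their genotype by Dixon's criterion, where 1.5 are what chance gives at 1 in 20. None of the 3 concerned the 6 enzymes. For Slc6a3 they were DJ-1+/+ replicate 2, the highest of its genotype at 130 cpm, and DJ-1-/- replicate 1, the lowest of its genotype at 58.1 cpm. For Gch1, which supplies the cofactor of Th, it was DJ-1+/+ replicate 4, the lowest at 6.77 cpm.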

How the results depend on the processing

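The 6 enzymes had no adjusted p under 0.05 in any fit, and the smallest was 0.86, for Aldh1a1 with no filter on low counts. With 1 library left out, the log2 fold changes ran from -0.14 to 0.0085 for Maoa, -0.18 to -0.025 for Maob, 0.07 to 0.15 for Aldh1a1, -0.013 to 0.11 for Aldh2, -0.027 to 0.10 for Aldh7a1 and -0.12 to -0.019 for Aldh9a1, with the sign turning for Maoa, Aldh2 and Aldh7a1; the cause was not tested. Under the other alternatives no sign turned. Genes with an unadjusted p under 0.05 numbered 511, 235 with DESeq2, 802 with no filter on low counts and 338 (without DJ-1-/- replicate 2) to 732 with 1 library left out. Genes with an adjusted p under 0.05 numbered 1, 36 with no filter and 1 to 2 (without DJ-1+/+ replicate 2 or 3) with 1 library left out. With the replicate block the latter count was 8 and no call on the 6 enzymes changed. Same-numbered mice were not treated as pairs, and the correlations of their deviations ran from -0.18 to 0.28. These correlations cannot show whether mice shared a litter or a cage, which the labels do not give. The difference in Aldh1a1 per 100 dopaminergic neuron counts ran from -5.27 to -1.97 with 1 library left out. It was past the threshold without DJ-1+/+ replicate 2, the mouse with the lowest ratio. With each genotype centred, r was -0.096 for Maob with the astrocyte genes and -0.084 for Aldh7a1 with the dopaminergic genes; without the 2 farthest mice, r with the dopaminergic genes was -0.34 for Maoa, 0.36 for Maob and -0.041 for Aldh7a1. At this depth, and on the counts as deposited, the intervals of the 6 enzymes leave room for differences from 22.2% lower to 21.4% higher.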
